A study of Mus musculus with 8 samples.

Results

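The genes described are the 5 subunits of the transcription factor NFkB (Nfkb1, Nfkb2, Rel, Rela and Relb), 2 of its inhibitors (Nfkbia and Nfkbie), and 3 genes that NFkB itself switches on (Tnfaip3, Birc3 and Tnfaip2). They were chosen by symbol for their role in the pathway, and make 10 of the 45321 genes quantified and 10 of the 12963 that passed the filter on low counts. Their RNA was measured in adherent fibroblast cultures grown from mouse colon, by sequencing of polyadenylated RNA. Cultures with a loxP-flanked Zeb1 gene (Zeb1 flox/flox, Fib-Ctrl) were compared with cultures in which Zeb1 had been deleted (Zeb1 del/del, Fib-dZeb1), all without treatment. Zeb1 encodes a repressor of transcription best known for switching off epithelial genes, and elsewhere the study followed how its loss changes inflammatory signalling in fibroblasts, NFkB included. There were 2 lines of culture per genotype (line 1 and line 2) with 2 replicate libraries each, so that 4 Fib-Ctrl stood against 4 Fib-dZeb1 libraries. Cre recombinase was induced in culture according to the study. Neither the labels nor the methods used here give the age of the animals, the kind of Cre, or whether Fib-Ctrl cultures met it too, and so the effect of losing Zeb1 and that of Cre cannot be told apart.

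NFkB proteins form dimers that are held in the cytoplasm by IkB proteins until a receptor, such as those for tumor necrosis factor or interleukin 1, activates the IkB kinase complex. In the canonical branch, IkB alpha is degraded and dimers of p65 and p50 enter the nucleus, whereas in the non-canonical branch the kinase NIK triggers the processing of p100 to p52, which pairs with RelB. Several genes switched on by NFkB encode its own subunits, inhibitors and brakes, so their mRNA is widely used as a readout of pathway activity, and in fibroblasts the pathway drives chemokines and matrix-degrading enzymes.

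The starts of these genes are shown first for the kappa-B consensus, the short sequence bound by NFkB dimers. RefSeq promoter windows (250 bases before to 50 after the start, build GRCm38.p6) were matched for 8 members and gave 11 windows. The kappa-B consensus was searched on both strands, and overlapping matches were merged in the print. It occurred in 8 of the 11 windows, and thus in 6 of the 8 members (Tnfaip3, Tnfaip2, Rel, Nfkbia, Nfkbie and Nfkb2), while 8.5% of all 32851 windows of that length held one. Windows 2 and 3 of Nfkb2 overlap and share a match, the only match of window 3, so that this site counts in both windows. No match was present in the windows of Birc3 and Rela. The letters CACCTG, an E2-box of the kind bound by ZEB proteins, searched on both strands, occurred in 1 of the 11 windows, against 20.2% of all windows, and that was the first window of Tnfaip3. The 250 bases before the start are printed for the member that rose most (Tnfaip3), the one that fell (Tnfaip2) and the IkB alpha gene (Nfkbia). Also printed is Nfkb2 (first of its 3 starts), a subunit gene whose genotype difference was called as differing between lines. All are given 5′ to 3′ on the gene's strand, with kappa-B and E2-box letters in capitals. The regions are chr10:19015411-19015660 (minus strand), chr12:111442411-111442660 (plus strand), chr12:55492648-55492897 (minus strand) and chr19:46304487-46304736 (plus strand).
Tnfaip3: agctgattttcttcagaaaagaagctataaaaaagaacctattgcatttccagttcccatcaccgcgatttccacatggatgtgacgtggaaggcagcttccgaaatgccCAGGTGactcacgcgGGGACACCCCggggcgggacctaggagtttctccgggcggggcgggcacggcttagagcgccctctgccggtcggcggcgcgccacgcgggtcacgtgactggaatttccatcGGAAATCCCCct
Tnfaip2: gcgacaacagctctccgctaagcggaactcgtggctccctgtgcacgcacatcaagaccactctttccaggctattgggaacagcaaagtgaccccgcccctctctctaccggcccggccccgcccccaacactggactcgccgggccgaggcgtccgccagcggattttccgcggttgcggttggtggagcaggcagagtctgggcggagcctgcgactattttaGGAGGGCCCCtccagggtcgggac
Nfkbia: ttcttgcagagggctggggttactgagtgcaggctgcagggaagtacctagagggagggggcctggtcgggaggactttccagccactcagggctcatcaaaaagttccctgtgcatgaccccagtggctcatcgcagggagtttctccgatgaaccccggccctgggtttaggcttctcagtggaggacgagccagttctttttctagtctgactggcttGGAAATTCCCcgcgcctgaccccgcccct
Nfkb2: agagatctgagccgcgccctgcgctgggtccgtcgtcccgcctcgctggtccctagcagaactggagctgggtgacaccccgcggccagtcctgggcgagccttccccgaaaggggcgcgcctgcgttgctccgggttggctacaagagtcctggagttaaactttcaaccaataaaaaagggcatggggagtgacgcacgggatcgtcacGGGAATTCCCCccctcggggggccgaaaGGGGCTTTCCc
In Tnfaip3 the E2-box, read on the opposite strand, began at position -140 and the kappa-B matches at -125 and -12 from the start. The match in Tnfaip2 began at -24, that in Nfkbia at -29, and those in Nfkb2 at -39, -38 and -11, the first 2 of which overlap. A match describes letters in a window and does not show that a factor binds there.

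The 8 libraries held 18852422 to 25540529 reads, and the members 72 (Nfkbie) to 3919 (Nfkb2) reads per library. Zeb1 itself ranged from 92.1 to 98.5 CPM (read counts relative to library size, scaled by TMM) in the control and from 11.4 to 18.3 CPM in the deleted cultures, as their labels say. All 8 fibroblast markers examined were present, although their summed level was 14851 to 18997 TPM (relative to both transcript length and library size) in Fib-Ctrl, against 7193 to 11182 TPM in Fib-dZeb1, and 3 of the 8 fell. Leukocytes, which use NFkB genes heavily, left little trace, since the pan-leukocyte gene Ptprc did not exceed 0.0518 TPM, the macrophage gene Adgre1 had no reads, and 5 of 8 leukocyte markers had at most 3 reads in any library. Their summed level was 2.99 to 23.8 TPM in Fib-Ctrl and 3.94 to 5.13 TPM in Fib-dZeb1, the upper Fib-Ctrl value coming from Lyz2. Of 5 epithelial markers, Epcam rose, and their summed level was 1.91 to 5.47 TPM in Fib-Ctrl and 5.17 to 32.5 TPM in Fib-dZeb1. The part of these markers in the results was not tested. Fib-dZeb1 line 1 expressed Xist and the other lines Ddx3y, so that in line 1 sex and genotype cannot be told apart. Sex also differs between the Fib-dZeb1 lines, and so enters the comparison of these lines, of the line contrasts and of all libraries. In bulk RNA, fewer cells of a type and less RNA per cell cannot be told apart either.

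Between genotypes, Tnfaip3 and Nfkb1 rose and Tnfaip2 fell, while the other 7 members did not pass the test. Thus 2 of 10 members were called higher at an adjusted p under 0.05 (edgeR, adjusted over 12963 genes), where 7.54% of all tested genes were, and 1 of 10 was called lower, where 8.65% were. The log2 fold change was above 0 in 9 of the 10 members, against 49.6% of all tested genes. With a correlation within lines estimated over all genes (limma), Tnfaip2 kept its call (adjusted p = 0.0147) and neither Tnfaip3 (adjusted p = 0.173) nor Nfkb1 (adjusted p = 0.117) did, and with the libraries of each line summed (edgeR) no member was called. The 4 Fib-dZeb1 libraries did not overlap with the 4 Fib-Ctrl libraries in Nfkb1 and Tnfaip3, which lay higher (12.0% of all genes), and in Tnfaip2, which lay lower (12.3% of all genes). Members share a pathway and the same 8 libraries, so these counts are not independent of each other.

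**Figure D1:**
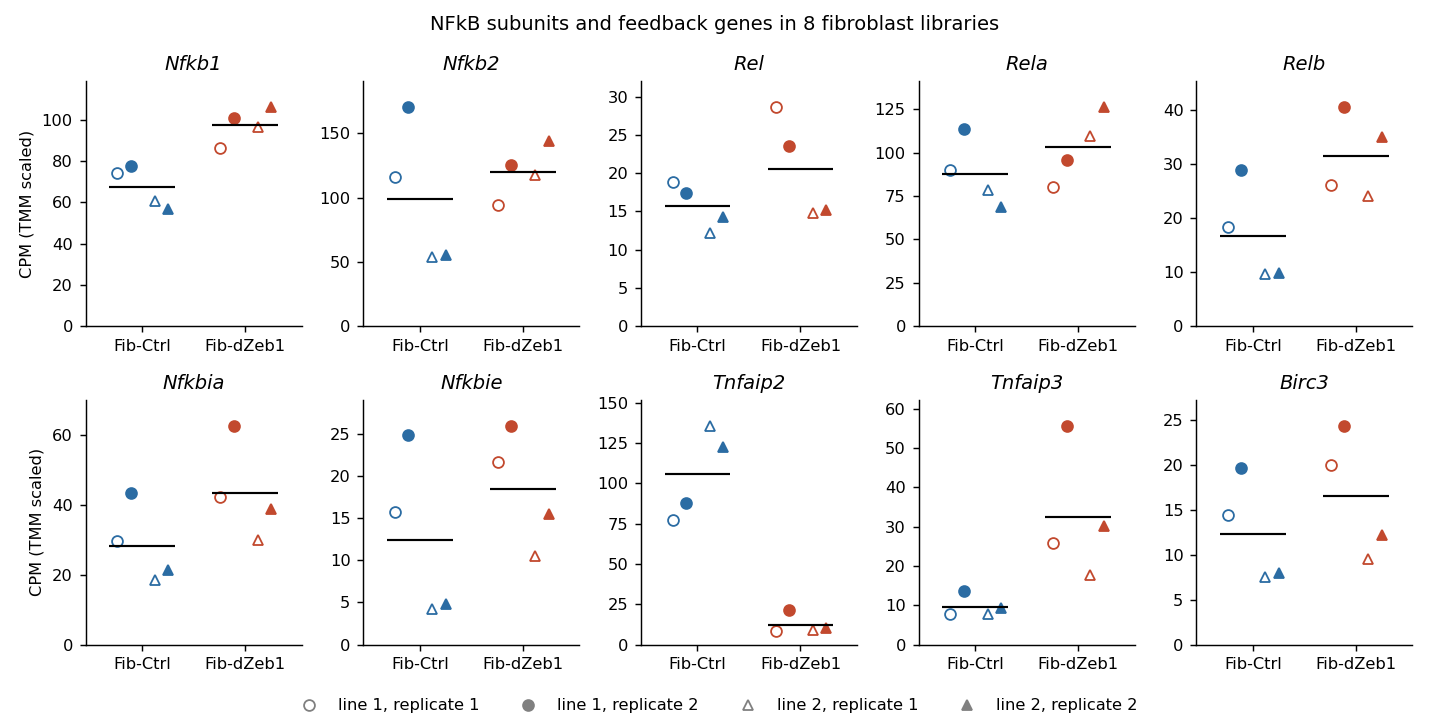
CPM (vertical axis, from 0) of the 10 members in each library, with Fib-Ctrl in blue and Fib-dZeb1 in red, line 1 as circles and line 2 as triangles, replicate 1 open and replicate 2 filled, and the mean of 4 libraries as a bar. Tnfaip2 drops from a mean of 106 to 12.3 CPM and Tnfaip3 rises from 9.58 to 32.4 CPM. The triangles of Fib-Ctrl line 2 lie lowest of all in Nfkb1, Nfkb2, Rel, Rela, Relb, Nfkbia, Nfkbie and Birc3.

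Of the canonical subunits, Nfkb1 encodes p105, the precursor of the DNA-binding p50. It was at 74.4 and 77.5 CPM in Fib-Ctrl line 1, 60.6 and 56.8 CPM in Fib-Ctrl line 2, 86.6 and 101 CPM in Fib-dZeb1 line 1, and 96.3 and 106 CPM in Fib-dZeb1 line 2 (replicates 1 and 2 in each case). All Fib-dZeb1 libraries lay above all Fib-Ctrl libraries. The mean was 67.3 ± 10.2 CPM (SD, n = 4) in Fib-Ctrl, against 97.5 ± 8.27 CPM in Fib-dZeb1, a log2 fold change of 0.53 (SE 0.13, edgeR adjusted p = 0.0256). This call was lost with an estimated correlation within lines (limma adjusted p = 0.117), and without Fib-Ctrl line 2 replicate 1 (adjusted p = 0.0717) or replicate 2 (0.0581), Fib-dZeb1 line 1 replicate 2 (0.0606), and Fib-dZeb1 line 2 replicate 1 (0.0551) or replicate 2 (0.0741).

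Rela encodes p65, the subunit with the transactivation domain of the classical dimer. It was at 90.2 and 114 CPM in Fib-Ctrl line 1, 78.3 and 68.7 CPM in Fib-Ctrl line 2, 80.1 and 95.9 CPM in Fib-dZeb1 line 1, and 109.8 and 126 CPM in Fib-dZeb1 line 2. The genotypes overlapped, because line 1 was the higher line in Fib-Ctrl and the lower in Fib-dZeb1. The log2 fold change was 0.23 (SE 0.19, edgeR adjusted p = 0.435).

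Rel encodes c-Rel, a subunit most abundant in lymphoid cells. It was at 18.8 and 17.4 CPM in Fib-Ctrl line 1, 12.1 and 14.3 CPM in Fib-Ctrl line 2, 28.6 and 23.5 CPM in Fib-dZeb1 line 1, and 14.8 and 15.2 CPM in Fib-dZeb1 line 2. Both Fib-dZeb1 line 1 libraries lay above the rest, while Fib-dZeb1 line 2 lay within the range of Fib-Ctrl. The log2 fold change was 0.39 (SE 0.25, edgeR adjusted p = 0.315).

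The non-canonical subunits were the more variable ones among control cultures. Nfkb2, which encodes p100 and its product p52, was at 116 and 170.4 CPM in Fib-Ctrl line 1, 53.8 and 55.0 CPM in Fib-Ctrl line 2, 94.0 and 125 CPM in Fib-dZeb1 line 1, and 118 and 144 CPM in Fib-dZeb1 line 2. The highest and the lowest libraries both belonged to Fib-Ctrl, with all Fib-dZeb1 libraries between them. The mean was 98.8 ± 55.9 CPM (SD, n = 4) in Fib-Ctrl, against 120.1 ± 20.7 CPM in Fib-dZeb1, and the log2 fold change of 0.28 (SE 0.36) did not pass the test (edgeR adjusted p = 0.631).

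Relb encodes the partner of p52. It was at 18.3 and 28.9 CPM in Fib-Ctrl line 1, 9.55 and 9.86 CPM in Fib-Ctrl line 2, 26.1 and 40.5 CPM in Fib-dZeb1 line 1, and 24.1 and 35.0 CPM in Fib-dZeb1 line 2. Only Fib-Ctrl line 1 replicate 2 reached into the range of the Fib-dZeb1 libraries. The log2 fold change was 0.91 (SE 0.37, edgeR adjusted p = 0.12). Without that library, which made the overlap, it was 1.32 and passed the test (adjusted p = 0.0326). In the other 7 of 8 fits with 1 library left out it did not pass (adjusted p 0.131 to 0.248).

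Neither inhibitor passed the test over all libraries. Nfkbia encodes IkB alpha, which NFkB induces within minutes and which ends its own activation. It was at 29.6 and 43.4 CPM in Fib-Ctrl line 1, 18.3 and 21.3 CPM in Fib-Ctrl line 2, 42.3 and 62.5 CPM in Fib-dZeb1 line 1, and 29.8 and 38.8 CPM in Fib-dZeb1 line 2. Both Fib-Ctrl line 2 libraries lay below all others, while Fib-Ctrl line 1 overlapped with both Fib-dZeb1 lines, with a log2 fold change of 0.62 (SE 0.31, edgeR adjusted p = 0.198).

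Nfkbie encodes IkB epsilon, a later and slower brake. It was at 15.8 and 24.8 CPM in Fib-Ctrl line 1, 4.19 and 4.85 CPM in Fib-Ctrl line 2, 21.7 and 26.0 CPM in Fib-dZeb1 line 1, and 10.5 and 15.6 CPM in Fib-dZeb1 line 2. Line 1 was the higher line in both genotypes, and the genotypes overlapped, with a log2 fold change of 0.57 (SE 0.57, edgeR adjusted p = 0.527).

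Of the feedback genes, Tnfaip3 encodes A20, a ubiquitin-editing enzyme that shuts off signalling from the tumor necrosis factor and interleukin 1 receptors. It was at 7.70 and 13.7 CPM in Fib-Ctrl line 1, 7.69 and 9.19 CPM in Fib-Ctrl line 2, 25.9 and 55.7 CPM in Fib-dZeb1 line 1, and 17.7 and 30.1 CPM in Fib-dZeb1 line 2. The lowest Fib-dZeb1 library lay above the highest Fib-Ctrl library. The means of 9.58 ± 2.86 (SD, n = 4) and 32.4 ± 16.4 CPM corresponded to a log2 fold change of 1.76 (SE 0.36), a fitted 3.38-fold rise (edgeR adjusted p = 0.0150). Leaving out any single library kept this call (adjusted p 0.0154 to 0.044), but an estimated correlation within lines did not (limma adjusted p = 0.173).

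Birc3 encodes cIAP2, a ubiquitin ligase of the receptor complex that NFkB induces and that protects cells from death. It was at 14.4 and 19.6 CPM in Fib-Ctrl line 1, 7.51 and 7.95 CPM in Fib-Ctrl line 2, 20.0 and 24.4 CPM in Fib-dZeb1 line 1, and 9.52 and 12.3 CPM in Fib-dZeb1 line 2. Line 1 lay above line 2 in both genotypes, and the log2 fold change between genotypes was 0.42 (SE 0.39, edgeR adjusted p = 0.502).

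Tnfaip2, a gene first found as induced by tumor necrosis factor, whose product resembles a subunit of the exocyst and takes part in membrane protrusions, went the other way. It was at 77.4 and 88.0 CPM in Fib-Ctrl line 1, 136 and 122 CPM in Fib-Ctrl line 2, 8.45 and 21.4 CPM in Fib-dZeb1 line 1, and 8.80 and 10.4 CPM in Fib-dZeb1 line 2. The highest Fib-dZeb1 library lay below the lowest Fib-Ctrl library. The means were 106 ± 27.6 CPM (SD, n = 4) and 12.3 ± 6.12 CPM, a log2 fold change of -3.11 (SE 0.35) or a fitted 8.62-fold drop (edgeR adjusted p = 0.00169), and leaving out any single library kept the call (adjusted p 0.000851 to 0.00949). It was the member whose profile over the 8 libraries was least like that of any other, its nearest member Rela being at a root mean square difference of 1.77 on the log2 scale, where Nfkb1 and Rela stood 0.21 apart.

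Genotypes were also compared within each line number. In line 2, 6 members rose in Fib-dZeb1 (Nfkb1, Nfkb2, Rela, Relb, Nfkbie and Tnfaip3), where 14.1% of all genes were called higher, and Tnfaip2 fell, where 14.6% were called lower. In line 1, Rel and Tnfaip3 rose, where 13.6% of all genes were called higher, and Tnfaip2 fell, where 13.8% were called lower. These tests use the spread between replicates of a line, which need not be separate cultures, and so measure less than the spread between cultures. Lines that share a number are not stated to share an animal. By Xist and Ddx3y the line 1 cultures of the genotypes differ in sex, and so came from different animals. For line 2 this is not known, and the contrasts within a line number are not paired.

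In line 2 the log2 fold changes were 0.79 for Nfkb1 (SE 0.11, edgeR adjusted p = 0.00316), 1.26 for Nfkb2 (SE 0.22, adjusted p = 0.00601) and 1.60 for Relb (SE 0.31, adjusted p = 0.00909). Nfkbie followed with 1.52 (SE 0.29, adjusted p = 0.00883), Tnfaip3 with a fitted 2.83-fold rise (adjusted p = 0.0403) and Rela with 0.68 (SE 0.16, adjusted p = 0.0167). In line 1 the values of the same genes were 0.30 for Nfkb1, -0.39 for Nfkb2, 0.50 for Relb, 0.23 for Nfkbie and -0.21 for Rela, none of which passed the test. Tnfaip3 rose by 1.93 (SE 0.44, adjusted p = 0.0179) and Rel by 0.52 (SE 0.16, adjusted p = 0.0443) in line 1, and Tnfaip2 changed by -2.47 there (adjusted p = 0.00413) and -3.74 in line 2 (adjusted p = 0.000957).

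Leaving out any single library kept the line 2 calls of Nfkb1, Nfkb2 and Tnfaip2. The line 2 call of Relb was lost without Fib-Ctrl line 2 replicate 1 (edgeR adjusted p = 0.0619) or 2 (0.0577) or without Fib-dZeb1 line 2 replicate 2 (0.0625), and that of Nfkbie without the first (0.064) or the last (0.0613) of these. Rela lost it without the same 3 libraries (0.0583, 0.111 and 0.113), and Tnfaip3 without any of the 4 libraries of line 2 (0.0523 to 0.216). In line 1, Tnfaip3 lost its call without Fib-Ctrl replicate 1 (0.107) or Fib-dZeb1 replicate 2 (0.0644). Rel passed in only 1 of 8 such fits, the one without Fib-dZeb1 line 1 replicate 2 (0.0366).

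**Figure D2:**
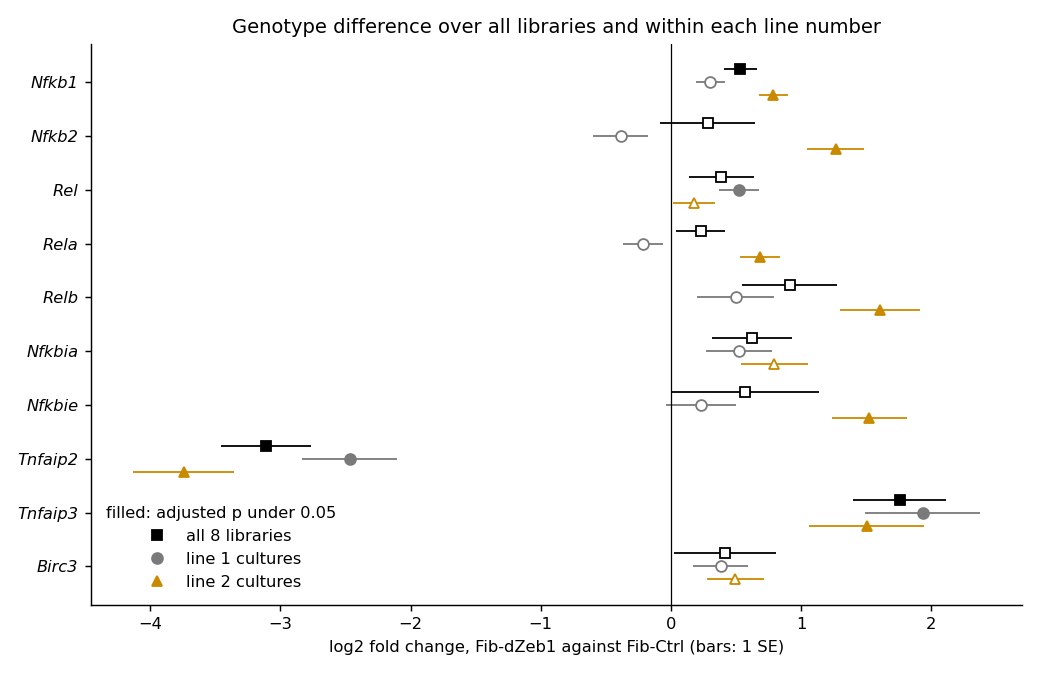
Log2 fold change of each member, Fib-dZeb1 against Fib-Ctrl, with 1 SE, over all 8 libraries (black squares), within line 1 (grey circles) and within line 2 (yellow triangles), filled where the adjusted p was under 0.05. Tnfaip3 (fitted 3.82-fold and 2.83-fold higher) and Tnfaip2 (-2.47 and -3.74) are filled in both lines, whereas Nfkb2 lies at -0.39 in line 1 and 1.26 in line 2.

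The test of the difference between both line contrasts called 2 members, Nfkb2 with 1.65 on the log2 scale (SE 0.30, edgeR adjusted p = 0.0134) and Rela with 0.90 (SE 0.22, adjusted p = 0.0345), where 15.3% of all genes were called. A share of 2 in 10 is near that of all genes, and for the other 8 members a difference between lines was not shown. The call for Nfkb2 was lost without either Fib-Ctrl library of line 2 (0.0566 and 0.0569) or Fib-dZeb1 line 2 replicate 2 (0.0529). That for Rela was lost in 6 fits, without any of the 4 libraries of line 2 (Fib-Ctrl 0.0742 and 0.122, Fib-dZeb1 0.0745 and 0.12), the second Fib-Ctrl library of line 1 (0.103) or the first Fib-dZeb1 library of line 1 (0.0519). For Tnfaip3 the difference was -0.43 (SE 0.61, adjusted p = 0.672) and for Tnfaip2 it was -1.28 (SE 0.50, adjusted p = 0.125).

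The lines also differed within each genotype. Both Fib-Ctrl line 2 libraries lay below both Fib-Ctrl line 1 libraries in 8 of 10 members, against 32.3% of all genes, the exceptions being Tnfaip3 and Tnfaip2. Of the 10, 4 passed the test and were lower in Fib-Ctrl line 2, where 8.72% of all genes were. They were Nfkbie with -2.16 on the log2 scale (SE 0.29, edgeR adjusted p = 0.00458), Nfkb2 with -1.40 (SE 0.22, adjusted p = 0.00683), Relb with -1.28 (SE 0.31, adjusted p = 0.0308) and Birc3 with -1.14 (SE 0.22, adjusted p = 0.0152). In Fib-dZeb1, 2 of 10 members were lower in line 2, where 3.48% of all genes were, namely Birc3 with -1.03 (SE 0.22, adjusted p = 0.0349) and Rel with -0.80 (SE 0.16, adjusted p = 0.0290). The Fib-dZeb1 lines also differ in sex, so that line and sex cannot be told apart there. Nfkb2, the gene with the second largest fall between control lines, stood at 0.25 (SE 0.21, adjusted p = 0.501) between the Fib-dZeb1 lines. Nfkbie kept its call between the control lines with any library left out. Nfkb2 lost it without Fib-Ctrl line 2 replicate 1 (0.0539) or 2 (0.0578), and Relb and Birc3 lost it without either of these (Relb 0.14 each, Birc3 0.0887 and 0.0849) or the second Fib-Ctrl library of line 1 (0.146 and 0.0822). Between the Fib-dZeb1 lines, Rel lost its call without either line 2 library of Fib-dZeb1 (0.176 and 0.168), Fib-dZeb1 line 1 replicate 1 (0.067) or the second Fib-Ctrl library of line 1 (0.0511). Birc3 lost it without any line 2 library (Fib-dZeb1 0.211 and 0.116, Fib-Ctrl 0.0667 and 0.0672) or Fib-dZeb1 line 1 replicate 2 (0.073).

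**Figure D3:**
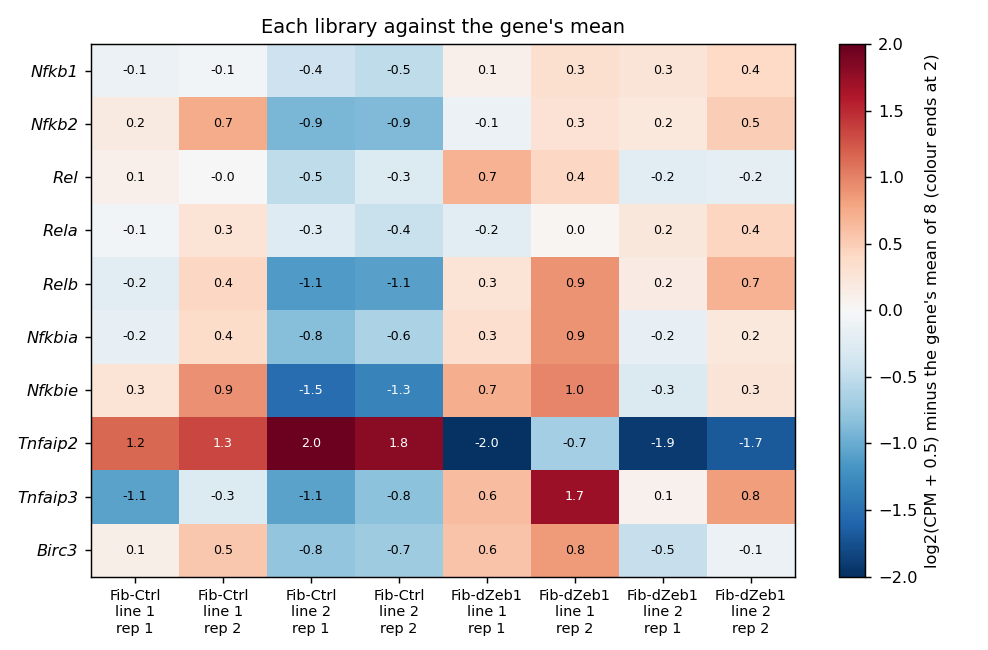
Each cell gives log2(CPM + 0.5) of a member in a library minus that member's mean over the 8 libraries, with red above and blue below the mean. Both columns of Fib-Ctrl line 2 are blue for every member other than Tnfaip2, and the Tnfaip2 row runs from red in the 4 Fib-Ctrl libraries to blue in the 4 Fib-dZeb1 libraries.

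The calls depended on which control culture was kept. With both libraries of Fib-Ctrl line 1 left out, 7 of 10 members were called by edgeR, where 2047 of 13539 genes were. Nfkb1, Nfkb2, Relb, Nfkbia, Nfkbie and Tnfaip3 were higher (994 of all genes) and Tnfaip2 was lower (1053 of all genes). With both libraries of Fib-Ctrl line 2 left out, 1 member was called (Tnfaip2), where 2020 of 13687 genes were. Nfkb2 (-0.26), Nfkbie (-0.15) and Birc3 (-0.05) then changed sign on the log2 scale. Tnfaip3 then still had a log2 fold change of 1.59, but its adjusted p was 0.0751. Without Fib-dZeb1 line 1 or line 2, Tnfaip3 and Tnfaip2 were called and Nfkb1 was not (adjusted p = 0.0545 and 0.135). Over all genes, 1747 of 13569 and 817 of 13540 were called in these fits.

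Replicate 2 tended to hold more mRNA of these genes than replicate 1. Nfkb2, Relb, Nfkbia, Nfkbie, Tnfaip3 and Birc3 were higher in replicate 2 in all 4 lines, which makes 6 of 10 members against 15.1% of all genes. For Tnfaip3 the log2 difference was 0.80 and 0.24 in Fib-Ctrl lines 1 and 2 and 1.09 and 0.75 in Fib-dZeb1 lines 1 and 2. The fitted mean difference was 0.77 (SE 0.14) for Tnfaip3, 0.49 (SE 0.12) for Relb and 0.43 (SE 0.08) for Nfkbia (edgeR adjusted p = 0.105, 0.13 and 0.108). None of the 10 members passed the test, where 0.0154% of all genes were called higher in replicate 2. An unadjusted p under 0.05 was found for 6 members, and the share of all genes with such a p was not counted. Within replicate number the genotype difference kept its direction, for the called members, with Tnfaip3 at 1.51 among the replicate 1 and 1.90 (SE 0.40) among the replicate 2 libraries. Tnfaip2 stood at -3.62 (SE 0.35) and -2.73 (SE 0.42) and Nfkb1 at 0.44 and 0.62. With 2 libraries against 2, no member passed the test in either set (edgeR), while 2 and 3 members had an unadjusted p under 0.05. The share of all genes with such a p was not counted here either.

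**Figure D4:**
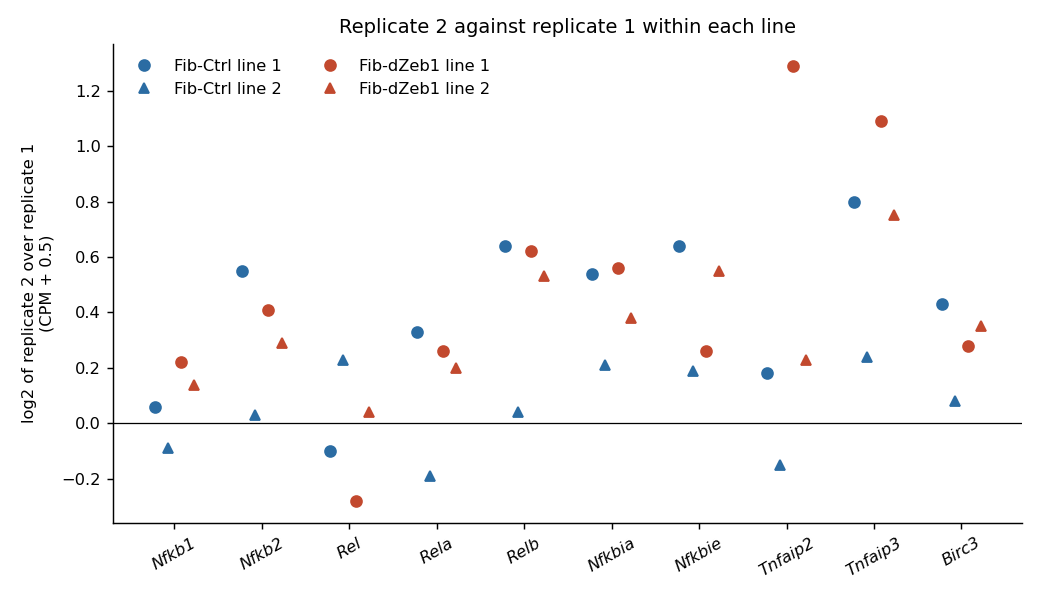
Log2 of replicate 2 over replicate 1 (CPM + 0.5) for each member in the 4 lines, Fib-Ctrl in blue and Fib-dZeb1 in red, line 1 as circles and line 2 as triangles. All 4 points lie above 0 for Nfkb2, Relb, Nfkbia, Nfkbie, Tnfaip3 and Birc3, and Fib-Ctrl line 2 shows the smallest difference in each of these 6.

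Levels were compared between members in TPM, which takes transcript length into account. In Fib-Ctrl, Tnfaip2 (58.5 ± 16.0 TPM, SD, n = 4), Rela (56.5 ± 12.6) and Nfkb2 (54.3 ± 30.6) were the most abundant, followed by Nfkbia (33.8 ± 13.4) and Nfkb1 (31.4 ± 5.35), and each neighbour in this order overlapped with the next. Nfkb1 lay above Relb (14.3 ± 7.19 TPM) without overlap. Nfkbia, as low as 22.0 TPM, did overlap with Relb, as high as 23.2 TPM. After Relb followed Birc3 (9.96 ± 4.41), Nfkbie (9.09 ± 7.16), Tnfaip3 (3.65 ± 1.01) and Rel (3.44 ± 0.724), again with overlapping neighbours. In Fib-dZeb1, Rela (74.2 ± 14.3 TPM) and Nfkb2 (74.1 ± 12.2) led, and Nfkbia (57.9 ± 16.9) and Nfkb1 (51.8 ± 4.81) came next. Relb (29.3 ± 5.82) did not overlap with its neighbours in rank, Nfkb1 and Birc3. It did overlap with Tnfaip3, since Relb went down to 23.6 TPM and Tnfaip3 up to 25.0 TPM. Tnfaip2 moved from first to ninth place at 8.96 ± 2.73 TPM and overlapped there with Nfkbie (15.0 ± 5.29) and Rel (5.04 ± 1.67). Its first place in Fib-Ctrl depended on a second transcript with few reads. The main transcript alone had a mean of 46.1 TPM there, below the means of Rela and Nfkb2. Tnfaip3 reached 15.2 ± 6.94 TPM in Fib-dZeb1, beside Birc3 at 15.6 ± 5.21. Rel, the lymphoid subunit, ranked last in both genotypes.

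Several members came mostly from 1 transcript. Rel, Rela, Nfkbia and Nfkbie had 1 annotated transcript in the files each, and the main transcript of Tnfaip3 carried 94.2% to 100% of Tnfaip3 TPM in Fib-Ctrl, against 81.2% to 92.8% in Fib-dZeb1. Another protein-coding transcript of Tnfaip3 was listed at 0 in all 4 Fib-Ctrl libraries and at 0.433 to 2.47 TPM in Fib-dZeb1, which rested on 1 to 7.47 estimated reads per library. Nfkb2 was split between its 2 transcripts, one of which took 49.1% to 68.4% of TPM in Fib-Ctrl, against 37.1% to 60.0% in Fib-dZeb1, with overlapping ranges. For Tnfaip2, the mean of the main transcript was 46.1 TPM in Fib-Ctrl and 5.80 TPM in Fib-dZeb1, and that of a second protein-coding transcript 10.5 and 2.07 TPM, with no test of either. The second was listed at 0 in replicate 2 of line 1 of both genotypes and rested on few reads, since in Fib-Ctrl line 1 replicate 1, 31.1 reads gave it 16.6 TPM where 1643 reads gave the main transcript 35.3 TPM. Salmon divides reads between overlapping transcripts by estimate, so such shares carry an error that the tables do not give.

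Other genes of the pathway were examined by role. From 93 other NFkB pathway genes, 77 were tested, of which 3 rose and 8 fell, where 7.54% and 8.65% of all genes did, with a median log2 fold change of 0.00, as for all tested genes. With scaling by library size alone the calls were 7 higher and 5 lower, and the median of all genes moved to 0.17. The calls of these pathway genes treat the libraries of a line as independent. They were not examined with a correlation within lines or with lines summed. In those settings the calls over all genes dropped from 2099 to 260 and 16. Among receptors, 4 of 12 fell and none rose (3 and 0 with library size alone), where 8.65% of all genes fell, with a median of -0.47. The type 1 receptor for tumor necrosis factor, Tnfrsf1a, ranged from 177 to 324 CPM in Fib-Ctrl and from 107 to 140.0 CPM in Fib-dZeb1, with a log2 fold change of -0.87 (SE 0.20, edgeR adjusted p = 0.0224), a call lost without replicate 2 of Fib-dZeb1 line 1 or line 2 (0.0617 each). The lymphotoxin beta receptor Ltbr, an activator of the non-canonical branch, fell by 0.58 (SE 0.12, adjusted p = 0.0157). The other 2 were Tnfrsf1b, the type 2 receptor for tumor necrosis factor, and Tlr6, a receptor for bacterial lipopeptides. Of the 12 tested receptors, these 4 were the ones whose Fib-dZeb1 libraries lay below all Fib-Ctrl libraries, against 12.3% of all genes. They were called from the same libraries, so the lack of overlap adds no separate support.

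Among the 5 IKK kinases and their relatives, 1 fell, where 8.65% of all genes did, and the other 4 did not pass the test. It was Ikbkg, which encodes NEMO, the scaffold of the IkB kinase complex. Its level ranged from 56.0 to 76.7 CPM in Fib-Ctrl and fell to between 35.1 and 39.1 CPM after deletion (-0.82 on the log2 scale, SE 0.12, edgeR adjusted p = 0.00584). Of 23 adaptors and upstream kinases, 1 rose and 3 fell, where 7.54% and 8.65% of all genes did. With library size alone 5 rose and 1 fell (2272 and 719 of all genes), and neither Map3k14 (edgeR adjusted p = 0.0527) nor Irak4 was called. With limma on TPM 3 rose and 2 fell, and neither Tab3 nor Irak4 was called. Tab3, a partner of the kinase TAK1, rose from between 14.9 and 16.7 CPM to between 20.9 and 26.8 CPM (0.55, SE 0.12, adjusted p = 0.0179), and its call was lost without Fib-Ctrl line 2 replicate 1 (0.0508). Map3k14, which encodes NIK, the kinase of the non-canonical branch, fell by 0.95 on the log2 scale (SE 0.24, adjusted p = 0.0315), Irak3, an inhibitor of Toll-like receptor signalling, fell by 2.06 (SE 0.54, adjusted p = 0.0363), and Irak4, the kinase that starts the signal of these receptors, was the third. Map3k14 passed the test in 3 of the 8 fits that left out a library (those without a Fib-Ctrl line 2 library or Fib-dZeb1 line 1 replicate 2) and had an adjusted p of up to 0.087. Irak3 passed in 2 (those without the replicate 1 library of a Fib-dZeb1 line) and had one of up to 0.0879.

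Of 10 tested brakes, 1 rose, where 7.54% of all genes did. It was the deubiquitinase gene Cyld, from between 44.9 and 62.2 CPM to between 78.4 and 91.2 CPM (0.74, SE 0.12, edgeR adjusted p = 0.00707). Of 21 target genes, 1 rose and none fell, where 7.54% and 8.65% of all genes did, with a median of 0.17. It was Mmp9, a gelatinase, with a mean of 7.58 ± 7.17 CPM (SD, n = 4) before and 71.3 ± 37.8 CPM after deletion (3.23, SE 0.75, adjusted p = 0.0234), with overlapping genotypes. It falls outside the rule for named genes and was chosen after its values were seen. The most abundant targets, Csf1 (a growth factor for macrophages; -0.25, SE 0.41, adjusted p = 0.720) and Ptgs2 (cyclooxygenase; -0.01, SE 0.44, adjusted p = 0.990), did not pass the test. No other IkB gene passed it, with Nfkbib at -0.17 (SE 0.17, adjusted p = 0.541) and Nfkbiz at 0.27 (SE 0.36, adjusted p = 0.649). Only 3 of 10 ligands were tested and none passed, among them Tnfsf12, which encodes TWEAK (-0.49, SE 0.16, adjusted p = 0.0746), and Tnfsf11, which encodes RANKL (0.03, SE 1.21, adjusted p = 0.991). Tnf, Il1b and Tnfsf14 had no reads in any of the 8 libraries.

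**Figure D5:**
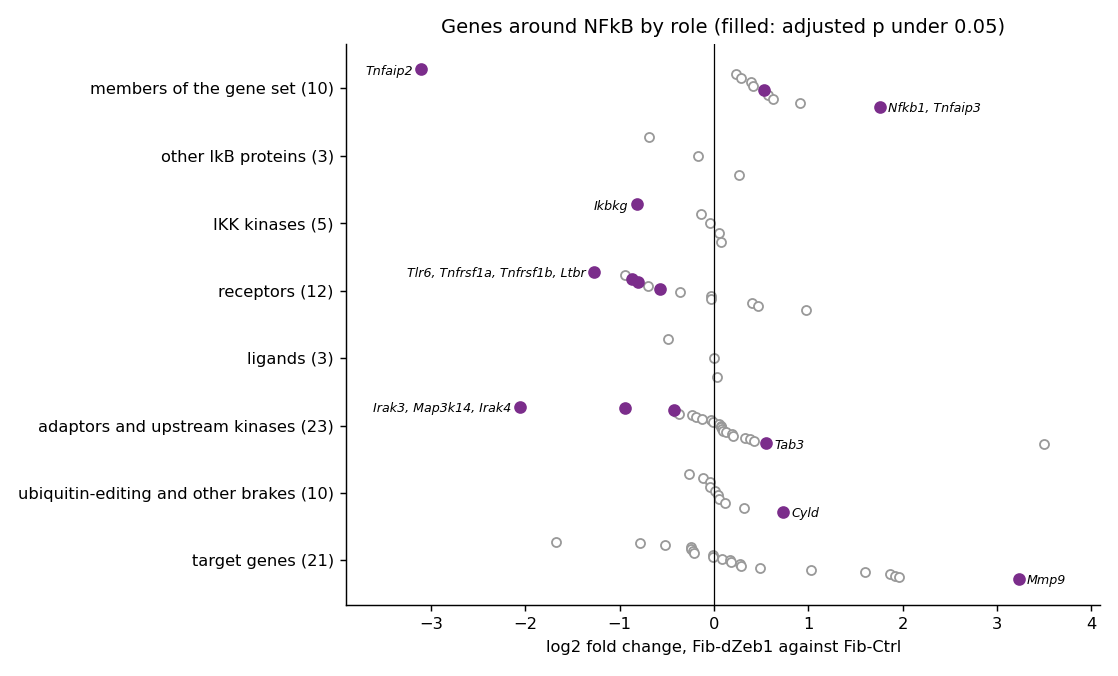
Log2 fold change of each tested gene (Fib-dZeb1 against Fib-Ctrl, all 8 libraries), grouped by role with the number tested in brackets, filled where the adjusted p was under 0.05 and named from left to right. The 4 filled receptors all lie below 0, and of the 10 members Tnfaip2 (-3.11) stands alone below 0.

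Where members lie in the genome was also set beside their change, because calls on some chromosomes lean one way. Tnfaip2 and Nfkbia lie on chromosome 12, which held 459 tested genes, 12 of them called higher and 92 lower (median log2 fold change -0.36). The 10 nearest tested genes of Tnfaip2 (chr12:111442469-111455018, GRCm38, GENCODE M21) had a median of -0.30, with 2 called lower, against -3.11 for Tnfaip2 itself, and those of Nfkbia (chr12:55489410-55492647) a median of -0.39, against 0.62 for Nfkbia. Tnfaip3 lies on chromosome 10 (chr10:19000910-19015657), with 14 of 627 tested genes called higher and 111 lower. Its 10 neighbours had a median of -0.15, with 2 called lower and none higher. Nfkb1 (chr3:135584655-135691547) had 1 neighbour called higher and 1 lower, and the neighbours of Nfkb2, Rela, Nfkbie and Birc3 held no call.

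The tested protein-coding genes most like the 3 called members, by the root mean square difference of log2(CPM + 0.5) profiles centred over 8 libraries among 12051 genes, were the following. For Nfkb1 they were Magoh (0.05 on the log2 scale), Hspa13 (0.07) and Polr3f (0.07), whose CPM rose from 27.7 to 39.1, 86.1 to 119 and 22.4 to 31.7 between the means of the genotypes. For Tnfaip3 they were Gm9767 (0.26), Usp43 (0.26) and Mycl (0.31), of which Mycl was the most abundant, with a mean of 15.8 CPM before and 38.2 CPM after deletion. Gm9767 (0.75 and 3.14 CPM) and Usp43 (0.03 and 1.43 CPM) lay near the floor, where the likeness depends on the added 0.5. For Tnfaip2 they were Fyb2 (0.38), Igdcc4 (0.43) and Adh7 (0.44), with Fyb2 at a mean of 5.55 CPM before and 0.35 CPM after deletion. Igdcc4 (7.02 and 0.37 CPM) and Adh7 (3.84 and 0.09 CPM) also ended below the added 0.5.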

How the data were processed

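Polyadenylated RNA of 8 mouse colon fibroblast libraries was analysed. The authors ran an nf-core pipeline, with STAR on GRCm38 and Salmon for quantification. The strand setting and the releases of STAR and of Salmon are not given in the sources read. The deposited tables hold estimated counts per transcript, not normalized, and TPM as the authors' pipeline scaled them. Both were summed to genes with GENCODE M21, which matched 98.72% of transcripts, and estimated counts were rounded.

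Genotypes were compared with the quasi-likelihood test of edgeR 4.0.16 (R 4.3.3), TMM scaling, the default filter on low counts, genotype as the only term and Benjamini-Hochberg adjustment over 12963 genes at 0.05. A fit with 1 mean per line gave the contrasts between and within lines, and with a replicate term the comparison of replicates, which was added after seeing the data. The fit was also run on simulated data with independent libraries and no difference between lines. That run therefore does not address libraries that are alike within a line. The 2 libraries of each line differed beyond counting noise (chi-square of 18.1 to 70.0 per degree of freedom) and so were not 1 library deposited again, which does not show that they were independent. Each entered as 1 sample. The labels do not say whether replicates were separate cultures, so p-values may measure technical spread. For the check of pairing, the deviation of each library from the mean of its genotype was correlated with that of its like-numbered library in the other genotype (0.23, -0.05, -0.05 and 0.08), and no pairing was used.

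Named are the 10 members, up to 2 risen and 2 fallen genes without overlap per pathway list (otherwise its 2 most abundant), and 3 genes of the nearest profile for each called member. Other genes with values were chosen after these were seen. The members and lists were chosen with earlier results of these data known. Alternatives used RLE factors or library size alone (edgeR), no filter, DESeq2 1.42.0, limma 3.58.1 on log2(TPM + 0.1) or with a correlation within lines (0.54), summed lines, line and replicate terms, and libraries or lines left out. Promoter windows were those of RefSeq.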

Additional observations from a re-analysis of the deposited data

Results flagged for a closer look

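In Fib-dZeb1, Tnfaip2 stood at 21.4 CPM in line 1 replicate 2, far from the other 3 libraries, of which the next had 10.4 CPM. The library with 21.4 CPM was still below every Fib-Ctrl library. Nfkbiz, which encodes an atypical IkB protein that is itself induced by NFkB, stood at 29.7 CPM in Fib-Ctrl line 1 replicate 2, far from the next Fib-Ctrl library at 12.5 CPM. The same library was the highest Fib-Ctrl library for Nfkb1, Nfkb2, Rela, Relb, Nfkbia, Nfkbie, Tnfaip3 and Birc3. The share of all genes for which this holds was not counted. A total of 46 groups of 4 libraries were examined in this way and 2 stood out, where chance alone gives about 1 in 20.

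The difference between line contrasts was called for Nfkb2 (1.65 on the log2 scale, edgeR adjusted p = 0.0134) and Rela (0.90, adjusted p = 0.0345). These are 2 of 10 members, near the 15.3% of all genes called in this test. The test uses the spread between replicates of a line. Both calls were lost in some of the fits that left out 1 library. Line 2 against line 1, Nfkb2 stood at -1.40 in Fib-Ctrl (adjusted p = 0.00683) and 0.25 in Fib-dZeb1 (0.501), and Rela at -0.47 (0.0771) and 0.42 (0.141), so that neither contrast of Rela passed the test. The role of sex, which differs between the line 1 cultures and between the Fib-dZeb1 lines, was not tested.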

How the results depend on the processing

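The fall of Tnfaip2 and the rise of Tnfaip3 and Nfkb1 kept their direction under every setting run. Over all genes, 2099 were called, against 3214 with DESeq2, 260 by limma with a correlation within lines, 16 with the libraries of each line summed, 984 to 2152 with 1 library left out, 5 and 10 from replicate 1 or replicate 2 alone, and 817 without Fib-dZeb1 line 2, these last settings being chosen after seeing the data. Among the 10 members, 3 were called, against 1 with the correlation within lines (Tnfaip2, with Tnfaip3 at an adjusted p of 0.173 and Nfkb1 at 0.117), 0 with lines summed (3 at an unadjusted p under 0.05 by edgeR), 5 with line number as a term (Relb and Nfkbia added), 2 to 4 with 1 library left out, 0 from either replicate alone (2 and 3 unadjusted), and 7 and 1 without Fib-Ctrl line 1 or line 2. For the unadjusted p, the shares of all genes were not counted. DESeq2 called the same 3 members. Without Fib-Ctrl line 1 or line 2, 2047 and 2020 of all genes were called. Lines summed treats each culture as 1 sample, with 2 against 2.

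Library size alone, without TMM, put the median gene at a log2 fold change of 0.17, as did limma on TPM, and moved the share of higher calls from 46.6% to 76.0% and 73.2%. The 3 members called by edgeR stayed the same with library size alone, and limma on TPM added Relb. With library size alone the pathway lists held 7 risen and 5 fallen genes in place of 3 and 8, and they held 5 to 10 calls with 1 library left out. Their calls with a correlation within lines or with lines summed were not counted.

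With a replicate block, 1966 genes were called, with the same 3 members for genotype, 5 in place of 2 for the difference of line contrasts, 7 in place of 4 between Fib-Ctrl lines, and 5 in place of 2 between Fib-dZeb1 lines. The numbers do not pair the libraries, and only 3 of 8 were closest to a library of their own number. Without the filter on low counts, the counts for these last 3 contrasts were 5, 7 and 7. With 1 library left out they were 0 to 3, 1 to 7 and 0 to 2, and 1 to 4 and 3 to 8 for the genotype within lines 1 and 2, where a lone library was assumed to vary like the rest. The shares of all genes called in these line contrasts under these settings were not counted, and the cause was not tested.

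Signs that turned belonged to genes that had not passed the test. On the log2 scale these were, without Fib-Ctrl line 2, Nfkb2 (-0.26), Nfkbie (-0.15) and Birc3 (-0.049), and without Fib-dZeb1 line 1, Rel (-0.064) and Birc3 (-0.18). Library size alone turned Nfkbib (0.011) and Ptgs2 (0.17). Leaving out 1 library turned Csf1 (0.086, range -0.54 to 0.086), Ptgs2 (0.01, 0.22, 0.15, 0.20 and 0.13, range -0.39 to 0.22) and Tnfsf11 (-0.40, -0.07, -0.10 and -0.39, range -0.40 to 1.0).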
